A study of Homo sapiens with 33 samples.

Results

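The response to knockout of the long form of GABPB1 was compared, gene by gene, with the response to its total knockout in A-375, a human melanoma cell line. Which forms of the protein remained was not examined here. Genes entered when both A-375 tables listed their name with a mean normalized count (reads divided by a per-library size factor, averaged over the libraries of a fit) of at least 10. Names starting with GABPB1, the edited gene, were left out. This gave 13945 genes of 13954 names that the A-375 tables share, and of 15149 entries in all 3 deposited tables. Of the rest, 5 were under the minimum and 4 carried a GABPB1 name. PRDM13, SAP25 and RPP21 lay just inside the minimum, with lower means of 10.9, 11.0 and 11.0 in the authors' deposited tables, while RBM24 and FAM196B lay just outside, at 9.68 and 9.04.

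The long-form knockout was 2 A-375 clones with exon 9 of GABPB1 deleted, each sequenced as 1 library. The total knockout was 12 A-375 libraries from 9 clones, of which 4 libraries had exons 2 to 9 deleted and 8 libraries had exon 2 deleted. Control libraries of A-375 were 4 from clones edited at ROSA26, a safe-harbour locus, and 2 from parental cells that were not edited. UM-UC-3, a bladder cancer line, served as a readout that shares no library with A-375; it had 9 total-knockout libraries, 3 of ROSA26 clones and 1 of parental cells. All clones were made with Cas9 and guide RNAs from a plasmid, sorted as single cells and grown out, so a clone carries its own history beside the deletion. Some clones gave more than 1 library, and such libraries are not independent cultures of separate clones. RNA was sequenced from stranded mRNA libraries. Per-library values were not used here, because the tables hold only fitted comparisons: a mean, the log2 change between knockout and control, and the standard error (SE) of that change.

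GABP is a transcription factor made of GABPA, a member of the ETS family that contacts DNA at a purine-rich word, and a B subunit that activates transcription. The B subunit is encoded by GABPB1 or by its paralog GABPB2. The long form of GABPB1 carries a leucine zipper, through which pairs of GABP dimers join into a tetramer, and the short form lacks it. In tumours with a mutated TERT promoter, the mutation makes a new ETS-type word, and GABP tetramers are known to bind there and activate TERT, the catalytic subunit of telomerase. The comparison of long-form with total knockout is aimed at which genes depend on the zipper form and which need any form of the protein.

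The deposited entries for GABPB1 were read first, as a check of the labels. GABPB1L, the entry named for the long form, fell in the authors' deposited tables for both knockouts, with changes of -12.79 ± 1.47 (SE, log2) for the long-form and -10.60 ± 0.70 for the total knockout. The entry named for the short form, GABPB1S, had a deposited change of 13.95 ± 1.04 in the long-form knockout and -9.81 ± 0.72 in the total knockout. A further entry, GABPB1S-DEX2, had a deposited change of -12.00 in the long-form knockout (adjusted p = 1.76e-12) and 12.36 ± 1.88 in the total knockout. GABPB1L-DEX2 had a deposited change of 13.61 in the total knockout (adjusted p = 3.74e-09). The fall of the entry GABPB1L is what the labels give for both knockouts, while the entries whose names end in DEX2 were higher in the total knockout. The short-form entries moved in opposite ways in the A-375 tables, and whether a name stands for the same form in both was not tested. Whether the long-form clones kept the short form at its control level cannot be read from these entries.

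The A-375 tables may share control libraries, in whole or in part. Shared controls were not told apart from separate control libraries that are alike. The knockout levels below come from different clones and give scale only. Control levels worked out from each table's mean, change and library numbers differed between the tables with a robust SD of 0.042 to 0.084 (log2, over the 11392 genes at 100 or more in both tables, for every pairing of 2, 4 or 6 controls), against 0.416 to 0.515 for the knockout levels worked out in the same way. With shared controls the errors of the changes are positively correlated, and on that account the SE of a difference given here, the root of the summed squared SEs, is larger than needed. Libraries that share a clone act the other way on the deposited SEs, by an amount that was not tested. The tables differ in scale: the median of the long-form table's mean over the total table's mean was 2.86, so levels were not compared across them. Of 10 melanoma and neural crest markers, 9 were measured, among them SOX10, MITF, PMEL and VIM, and none passed the test of the difference defined below, nor did any at an unadjusted p under 0.05. Of markers of other cell types, 4 of 13 urothelial, 3 of 8 keratinocyte, 4 of 9 fibroblast, 3 of 8 immune and 2 of 5 endothelial names were among the members, and 1 of them, CD68, a lysosomal protein of macrophages and other cells, passed the test.

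Transcripts that poly(A) selection should remove also moved between the knockouts. The ribosomal RNA precursor RNA45S5 had a deposited change of -3.31 ± 0.82 in the long-form table and 2.35 ± 0.84 in the total table. RNA28S5 stood at -3.98 ± 1.10 and 1.88 ± 0.78 in the authors' deposited tables, and all 3 ribosomal RNA names had a called difference, with a median of -5.76. Small nucleolar and other small RNAs gave 56 members, of which 46 had a difference below 0, with a median of -0.44. None passed the test and 4 had an unadjusted p under 0.05 in it, against 2666 of all 13945 members. The part of ribosomal RNA carry-over in the results below was not tested.

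The difference between the knockouts, the long-form change minus the total change on the log2 scale, was tested for every gene against its SE, and called at a Benjamini-Hochberg adjusted p under 0.05 over all 13945 genes. It was called for 618 genes, which is 4.43% of those tested. Of these, 369 (2.65%) were higher in the long-form knockout and 249 (1.79%) were lower. This split depends on where each table is centred: with the median change subtracted from each table, 208 were higher and 303 lower, although the median of all differences moved only from 0.07 to -0.01. The z values were also wide, with a median of 0.20 and a robust SD of 1.51. Subtracting that median and dividing by the robust SD left 11 calls, 7 higher and 4 lower. This left 10 of the 94 called genes that the naming rule gives. Those 10 were RMND5B, EMILIN2, NEK9, ICA1, USP11, STAMBP, MAP2K5, PDE2A, HIST2H2BE and HIST3H2A. By the authors' deposited adjusted p, 1448 members were called in the total knockout, 627 up and 821 down (10.4% of 13944 with an adjusted p). In the long-form knockout 118 were called, 31 up and 87 down (0.846% of 13943). In bulk RNA a change in the share of cells in some state and a change per cell cannot be told apart. The median deposited SE was 0.22 in the long-form table and 0.27 in the total table.

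Genes higher in the long-form knockout were mostly genes that sat near their control level there and low in the total knockout. Over the 369 genes the median deposited change was 0.17 in the long-form knockout and -0.85 in the total knockout, the total change was below 0 for 368, and the long-form change was under 0.5 in size for 344. The median difference was 1.02. Genes lower in the long-form knockout had a median deposited change of -0.35 there and 1.19 in the total knockout, with a total change above 0 for all but 4 of 249 and a long-form change below 0 for 220. Their median difference was -1.72. The plot of both changes shows the called genes as a pair of arms along the horizontal axis, of which the right arm, lower in the long-form knockout, reaches further below it.

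**Figure D1:**
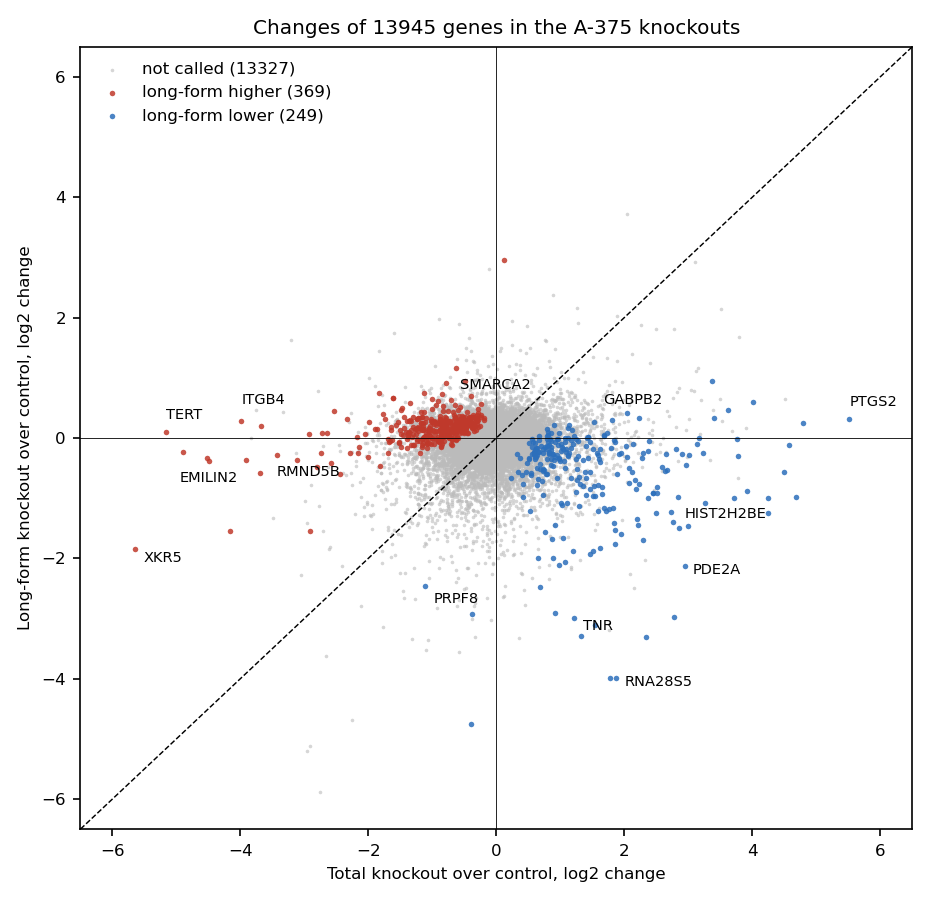
Each point is a gene, with its log2 change in the total knockout on the horizontal axis and in the long-form knockout on the vertical axis; red and blue mark the 369 higher and 249 lower differences, grey the genes not called, and the dashed line equal changes. Red genes lie left of the line near a long-form change of 0, and 4 genes beyond 6.5 on either axis are not drawn.

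Among the subunits of GABP, GABPB2 separated the knockouts. GABPB2 had a deposited change of 0.29 ± 0.26 in the long-form knockout (adjusted p = 0.695) and rose by 1.81 ± 0.32 in the total knockout. Its difference was -1.51 ± 0.42 (adjusted p of the difference test = 0.0165), and in UM-UC-3 total knockout it rose by 2.49 ± 0.20 in the authors' deposited table. GABPA, the DNA-binding partner, had deposited changes of 0.28 ± 0.17 and 0.81 ± 0.22, of which only the second was called. Its difference of -0.53 ± 0.28 was not called (adjusted p of the difference test = 0.273). With errors correlated as for 4 shared controls, a setting chosen after seeing the data, it was called (adjusted p of the difference test = 0.039). As for 2 shared controls it was also called, and as for 6 shared controls it was not.

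TERT also differed, with a wide interval. Its deposited change was 0.10 ± 0.27 in the long-form knockout and -5.16 ± 1.69 in the total knockout, called only in the latter (adjusted p = 0.0287). The difference of 5.26 ± 1.71 has a 95% interval from 1.90 to 8.61 and an adjusted p of 0.0491. It was not called after centring each table (adjusted p = 0.059), after removing a trend on transcript length (0.063) or after removing each chromosome's median (0.059). In UM-UC-3 the deposited change of TERT was -1.77 ± 0.63 (adjusted p = 0.0208).

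The gene with the smallest p was RMND5B, a subunit of the CTLH ubiquitin ligase complex, on chromosome 5 (178130996 to 178150565, plus strand, hg38). Its deposited change was -0.28 ± 0.13 in the long-form knockout and -3.43 ± 0.33 in the total knockout, a difference of 3.16 ± 0.35 (adjusted p = 6.68e-15). EMILIN2, an extracellular matrix glycoprotein, stood at -0.38 ± 0.15 and -4.50 ± 0.45 in the deposited tables, a difference of 4.12 ± 0.47. NEK9, a mitotic kinase, stood at -0.25 ± 0.16 and -2.74 ± 0.27, a difference of 2.48 ± 0.32. In none of these genes was the long-form change called by the authors' test, while each fell in the total knockout.

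The next genes by p had the same form. USP11, a deubiquitinase on the X chromosome (47232690 to 47248328, plus strand), had deposited changes of -0.16 ± 0.14 and -2.14 ± 0.23, a difference of 1.98 ± 0.26. STAMBP, a deubiquitinase of the endosome, had deposited changes of 0.07 ± 0.090 and -2.06 ± 0.29, a difference of 2.12 ± 0.30. MAP2K5, the kinase that activates ERK5, differed by 1.91 ± 0.29, and ZDHHC4, a palmitoyltransferase, by 2.73 ± 0.48. ICA1, a protein of secretory vesicles, differed by 3.88 ± 0.50. RMND5B, NEK9, USP11, STAMBP, MAP2K5, ZDHHC4 and ICA1 all fell in UM-UC-3 total knockout too in the authors' deposited table, with changes from -2.92 (ICA1) to -1.11 (STAMBP), and for EMILIN2 no UM-UC-3 value was used.

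Of the remaining genes named for their p, SNRNP200, the helicase that unwinds U4/U6 in the spliceosome, had deposited changes of 0.12 ± 0.099 and -0.90 ± 0.16, a difference of 1.02 ± 0.19. ZC3H13, a part of the m6A writer complex, differed by 1.20 ± 0.23, and SUPT20H, a subunit of the SAGA coactivator, by 1.13 ± 0.22. FIZ1, a zinc finger protein, differed by 1.29 ± 0.22, TTC31 by 1.28 ± 0.20, ZNF362 by 1.78 ± 0.33 and FAM114A2 by 1.46 ± 0.27. NCAM2, a neural adhesion molecule, differed by 2.04 ± 0.36 but had a deposited UM-UC-3 change of -0.02 ± 0.20.

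**Figure D2:**
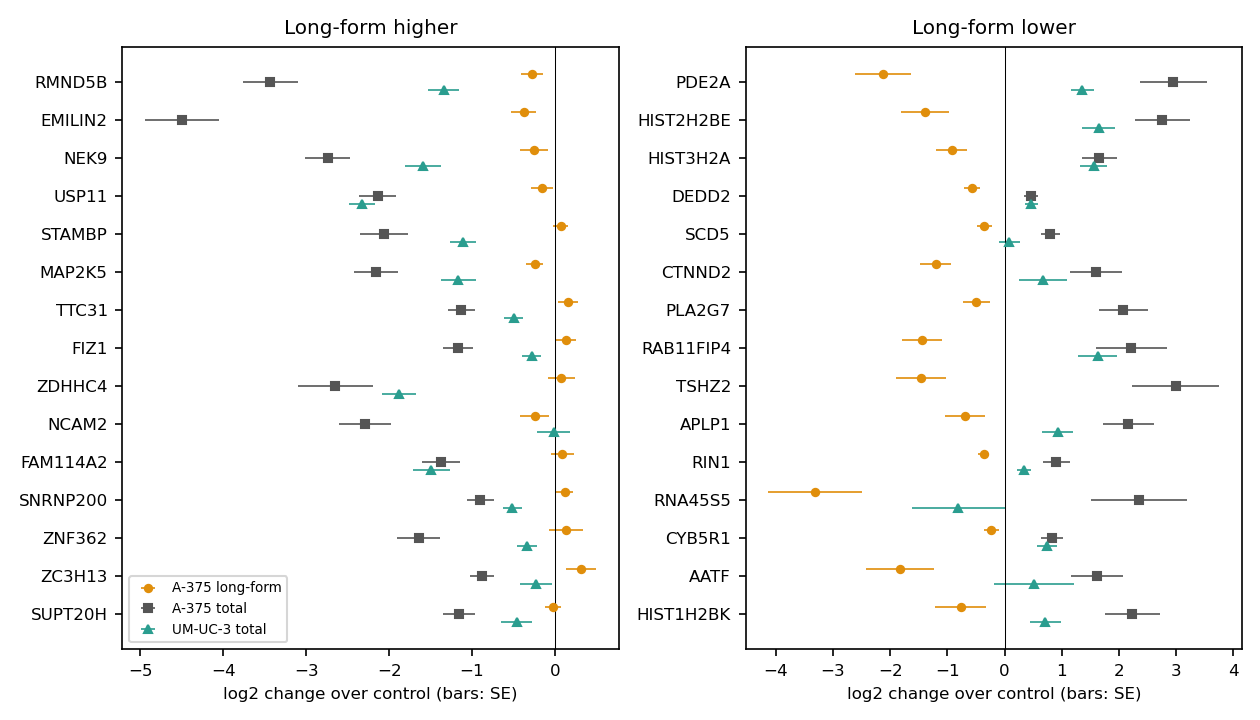
Log2 changes over control with SE bars for the 15 most significant genes in each direction (mean at least 100 and a difference of at least 1), in the A-375 long-form knockout (circles), A-375 total knockout (squares) and UM-UC-3 total knockout (triangles, where listed). On the left the circles lie near 0 and the squares at -0.88 or lower; on the right the squares lie above 0 and every circle below it.

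Among genes lower in the long-form knockout, the largest separation by p was PDE2A, a phosphodiesterase that degrades cyclic nucleotides, on chromosome 11 (72576141 to 72674591, minus strand). PDE2A fell by 2.12 ± 0.49 in the long-form knockout and rose by 2.95 ± 0.58 in the total knockout in the authors' deposited tables, a difference of -5.07 ± 0.76 (adjusted p = 4.98e-08). CTNND2, a neural catenin, moved from -1.21 ± 0.27 to 1.60 ± 0.45, and RAB11FIP4, an effector of recycling endosomes, from -1.44 ± 0.35 to 2.21 ± 0.62. DEDD2, a death-effector domain protein, moved from -0.57 ± 0.15 to 0.46 ± 0.12, and RIN1, a RAS effector, from -0.36 ± 0.099 to 0.90 ± 0.24. These genes and RNA45S5 were called in both deposited tables with opposite signs, 6 genes in all.

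SMARCA2, an ATPase of the SWI/SNF chromatin remodeller, was the 1 gene that was called in both tables and went the other way. Its deposited change was 0.51 ± 0.14 in the long-form knockout and -0.56 ± 0.16 in the total knockout, a difference of 1.07 ± 0.21. In UM-UC-3 its deposited change was -0.57 ± 0.22 (adjusted p = 0.0366).

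Other genes of the lower set rose in the total knockout without a called long-form change. SCD5, a desaturase, differed by -1.15 ± 0.21, APLP1, a relative of the amyloid precursor protein, by -2.85 ± 0.57, and CYB5R1, a reductase, by -1.07 ± 0.23. PLA2G7, a secreted phospholipase, differed by -2.57 ± 0.49 and TSHZ2, a homeobox protein, by -4.45 ± 0.88. PTGS2, the inducible cyclooxygenase, had deposited changes of 0.32 ± 0.69 and 5.52 ± 0.82, a difference of -5.20 ± 1.07. AATF, a nucleolar protein, had deposited changes of -1.83 ± 0.60 and 1.62 ± 0.45.

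Sorted by the authors' calls, most called differences came with a call in the total table alone: 305 of the higher and 181 of the lower. A call in the long-form table alone came with 4 higher and 16 lower, calls in both the same way with 3 and 1, in both opposite ways with 1 and 6, and in neither table with 56 and 45. Of the 1448 members called in the total knockout, the difference was called for 497, or 34.3%. For the others a difference was not detectable with these errors, which does not show that the knockouts acted alike.

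Among genes with a called difference, a few were called in the long-form knockout alone. A further 87 members called in the long-form knockout had no called difference. TNR, a matrix protein of the nervous system, had deposited changes of -2.99 ± 0.64 and 1.22 ± 0.66, and ATCAY, a neural BCH-domain protein, of -2.12 ± 0.49 and 0.98 ± 0.49. IER3, an immediate early gene, fell by 1.69 ± 0.36 and had a deposited total change of 2.30 ± 0.87. BCKDK, the kinase that restrains branched-chain amino acid breakdown, was higher, with 0.38 ± 0.092 against -0.24 ± 0.11, and UNKL, a zinc finger protein, was lower, with -0.58 ± 0.16 against 0.54 ± 0.21. TNR and ATCAY had means of 44.9 and 39.1 in the long-form table, so they rest on few reads.

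PRPF8, the central scaffold of the spliceosome, fell in both knockouts and more in the long-form one. Its deposited change was -2.46 ± 0.21 in the long-form table and -1.12 ± 0.32 in the total table, a difference of -1.35 ± 0.38 (adjusted p = 0.0188). The UM-UC-3 change was -0.31 ± 0.53 in the authors' deposited table and not called there. XKR5 and ZNF853 fell in both and more in the total knockout, with differences of 3.79 ± 1.02 and 2.62 ± 0.79. XKR5 had a mean of 16.4 in the total table.

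For some genes the 95% interval of the difference lay close to 0. It lay within 0.5 of 0 for 780 genes (5.59%) and within 1 for 6118 (43.9%). Of the members called in the total knockout, 19 lay within 0.5 and 299 within 1. The total changes of those named below were themselves under 0.5 in size, so such an interval does not tell a like response from none. PRR13 rose by 0.36 ± 0.11 in the total knockout with a deposited long-form change of 0.37 ± 0.11, a difference of 0.01 ± 0.15. ATP6V0C, a subunit of the vacuolar proton pump, differed by 0.02 ± 0.20, and RAB1A, a GTPase of the secretory pathway, by -0.04 ± 0.16. SMAD4, the shared SMAD of TGF-beta signalling, differed by 0.22 ± 0.14. FKBP1A and DYNLRB1, both called in the long-form table, differed by -0.03 ± 0.15 and 0.10 ± 0.17.

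Genes of DNA replication, mitosis and repair lay higher in the long-form knockout. For 44 genes of DNA replication the median difference was 0.92, against 0.07 over all members. Their median deposited change was 0.34 in the long-form and -0.57 in the total knockout. Of 44 differences, 43 were above 0 and 4 were called, all higher (9.09%, against 2.65% called higher over all members). POLA1, the catalytic subunit of the polymerase that starts DNA strands, differed by 1.39 ± 0.27, PRIM2, a primase subunit, by 1.06 ± 0.31, POLE2 by 1.98 ± 0.61 and RFC1, the large subunit of the clamp loader, by 0.83 ± 0.27. Of these, PRIM2, POLE2 and RFC1 lost the call in at least 1 alternative fit that centred a table or removed a trend.

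For 43 mitosis genes the median difference was 1.16 and every one lay above 0. Only ASPM, a spindle-pole protein, and KIF20B, a kinesin of cytokinesis, were called, at 1.61 ± 0.49 and 1.12 ± 0.36. That is 4.65% of the list, near the 4.43% called over all members, so the count of calls does not set the list apart. Both lost the call after centring or after removing a trend on length or GC content. For 30 homologous recombination and Fanconi genes the median difference was 0.95, all 30 lay above 0 and 6 were called (20%). FANCL, the ubiquitin ligase of the Fanconi pathway, differed by 1.00 ± 0.24, FANCI by 1.19 ± 0.31 and CHEK2, a checkpoint kinase, by 1.33 ± 0.36. Members of a list are not independent of each other, and by the authors' deposited adjusted p, 4 of 44, 3 of 43 and 4 of 30 of these genes were called lower in the total knockout and none in the long-form knockout.

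Centrosome and telomere genes went the same way. Of 41 centrosome genes 5 were called higher and 1 lower (14.6% in all, against 4.43% over all members), with a median difference of 0.51. NEDD1, which recruits the gamma-tubulin ring complex, differed by 1.44 ± 0.30, CCDC14 by 1.61 ± 0.37 and CEP295 by 0.88 ± 0.22. Of 20 genes of telomerase and shelterin, 4 were called (20%), all higher, with a median difference of 0.49. Beside TERT, these were TERF1, which binds telomeric repeats (0.83 ± 0.24), ACD, which tethers telomerase (0.78 ± 0.24), and NHP2, a protein of the telomerase RNA particle (0.82 ± 0.24). Each of these 4 lost the call after centring.

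Targets of p53 lay lower in the long-form knockout. Of 26 measured, 7 were called lower (26.9%, against 1.79% over all members) and none higher, the median difference was -0.88, and 24 lay below 0. Their median deposited change was -0.12 in the long-form knockout and 0.86 in the total knockout, where 18 of 26 were called higher. CDKN1A, the cell-cycle inhibitor p21, had deposited changes of 0.05 ± 0.36 and 1.69 ± 0.29, a difference of -1.64 ± 0.46. PLK3, a stress kinase, differed by -1.61 ± 0.37, PHLDA3, an inhibitor of AKT, by -1.25 ± 0.32, and FDXR, a mitochondrial reductase, by -1.29 ± 0.34. In UM-UC-3 total knockout the deposited changes of CDKN1A, PLK3 and FDXR were 0.33 ± 0.27, 0.16 ± 0.19 and 0.21 ± 0.21, none called. For PHLDA3 no UM-UC-3 value was used.

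Histone and ribosomal protein genes went the same way as ribosomal RNA. Of 9 histone genes 6 were called lower (66.7%, against 1.79% over all members), with a median difference of -3.00. Their median deposited change was -0.92 in the long-form knockout and 2.23 in the total knockout. HIST2H2BE, a histone H2B gene, had deposited changes of -1.39 ± 0.43 and 2.76 ± 0.48, a difference of -4.15 ± 0.64. HIST3H2A and HIST1H2AC, both H2A genes, differed by -2.58 ± 0.41 and -4.35 ± 0.86, and HIST1H2BK by -3.00 ± 0.66. In UM-UC-3, where RNA45S5 had a deposited change of -0.81 ± 0.81 that was not called, HIST2H2BE rose by 1.64 ± 0.29, HIST3H2A by 1.55 ± 0.24 and HIST1H2AC by 1.12 ± 0.22. Over the 9 members with a name starting with HIST that were measured there, 5 were called higher, 1 lower and 3 in neither direction by the authors' deposited adjusted p. The gene called lower was HIST1H1E, at -1.34 ± 0.52, which is named here after its value was seen.

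Of 79 cytosolic ribosomal protein genes 6 were called lower (7.59%, against 1.79% over all members), and none of the 79 differences was above 0, with a median of -0.44. Their median deposited change was -0.06 in the long-form knockout and 0.39 in the total knockout. RPS29 differed by -1.26 ± 0.38, RPS21 by -0.93 ± 0.28 and RPL36A by -0.93 ± 0.28. RPS18 differed by -2.31 ± 0.70. In UM-UC-3 total knockout RPS29, RPS21, RPL36A and RPS18 had deposited changes from -0.61 (RPS21) to -0.30 (RPS18), none called. RNA45S5, at -0.81 ± 0.81 there, was not called either. Genes of this family have many processed copies in the genome, so their counts are uncertain. Ribosomal RNA moved with the same signs as the ribosomal protein medians in both A-375 tables, and its part in these differences was not tested.

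Degradation, stress and neural genes gave smaller groups. Of 38 autophagy and lysosome genes 4 were called lower (10.5%, against 1.79% over all members), with a median difference of -0.39: SQSTM1, a cargo receptor, at -1.26 ± 0.37, MAP1LC3B at -0.75 ± 0.21, GABARAPL1 at -1.35 ± 0.40 and ATG2A at -0.80 ± 0.20. Of 24 immediate early genes 3 were called lower (12.5%, against the same 1.79%), IER3, DUSP1 and BTG2, with a median difference of -0.59. DUSP1, a MAP kinase phosphatase, fell by 0.61 ± 0.15 in the long-form knockout and had a deposited total change of 0.54 ± 0.24. Of 15 neural crest and neuron genes 4 were called lower (26.7%, against 1.79% over all members), with a median difference of -0.57. The list did not move as one, since 5 of the 15 differences were above 0. Among those called were TUBB3, a neuronal tubulin, at -0.92 ± 0.24 and SOX6 at -1.43 ± 0.43.

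The other lists gave 0 to 3 calls each. LARS, the leucyl-tRNA synthetase, was higher by 0.93 ± 0.23, as the 1 of 23 tRNA synthetases that was called. Single lower calls were B2M of 17 MHC class I presentation genes (-1.23 ± 0.38) and IRF9 of 33 interferon response genes (-1.78 ± 0.47). Others were HSPB8 of 28 heat shock genes (-3.61 ± 0.85), P4HA2 of 34 hypoxia genes (-1.22 ± 0.39) and BCL2A1 of 17 melanocyte genes (-3.07 ± 0.91). The shares called, 2.94% to 5.88%, and 4.35% for the tRNA synthetases, lie near the 4.43% called over all members. Such counts do not set these lists apart. Among 23 adhesion genes (8.70% called) ITGB4, an integrin of hemidesmosomes, was higher (4.27 ± 1.38) and NCAM1, a neural adhesion molecule, lower (-2.43 ± 0.66). Lists of fatty acid synthesis (12 genes), the ATF4 response (26), the NRF2 response (23) and dedifferentiation (26) had no call. In the same test 3, 1, 3 and 3 of their genes had an unadjusted p under 0.05, against 2666 of 13945 over all members.

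Mitochondrial genes, some of them textbook targets of GABP, had medians nearer to that of all members, 0.07. Of 74 mitochondrial ribosomal protein genes 2 were called higher, MRPS27 and MRPS31 (2.70%, against 2.65% over all members). Their list had a median difference of 0.16, with 60 of 74 differences above 0. The 36 complex I genes had a median difference of -0.03, and of 39 genes of complexes II to V none was called (5 at an unadjusted p under 0.05 by the same test), with a median of 0.02. TFB1M, a mitochondrial transcription factor and methyltransferase, was the 1 of 20 mitochondrial regulators that was called, at 1.15 ± 0.29. It had deposited changes of 0.25 ± 0.21 and -0.90 ± 0.20. Neither the 31 proteasome genes, the 16 ETS factors nor the 24 genes of cholesterol synthesis gave a called difference, with medians of 0.05, 0.26 and 0.05. In the same test 1, 5 and 2 of them had an unadjusted p under 0.05, against 2666 of 13945 over all members. The plot of list medians sets these groups beside each other.

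**Figure D3:**
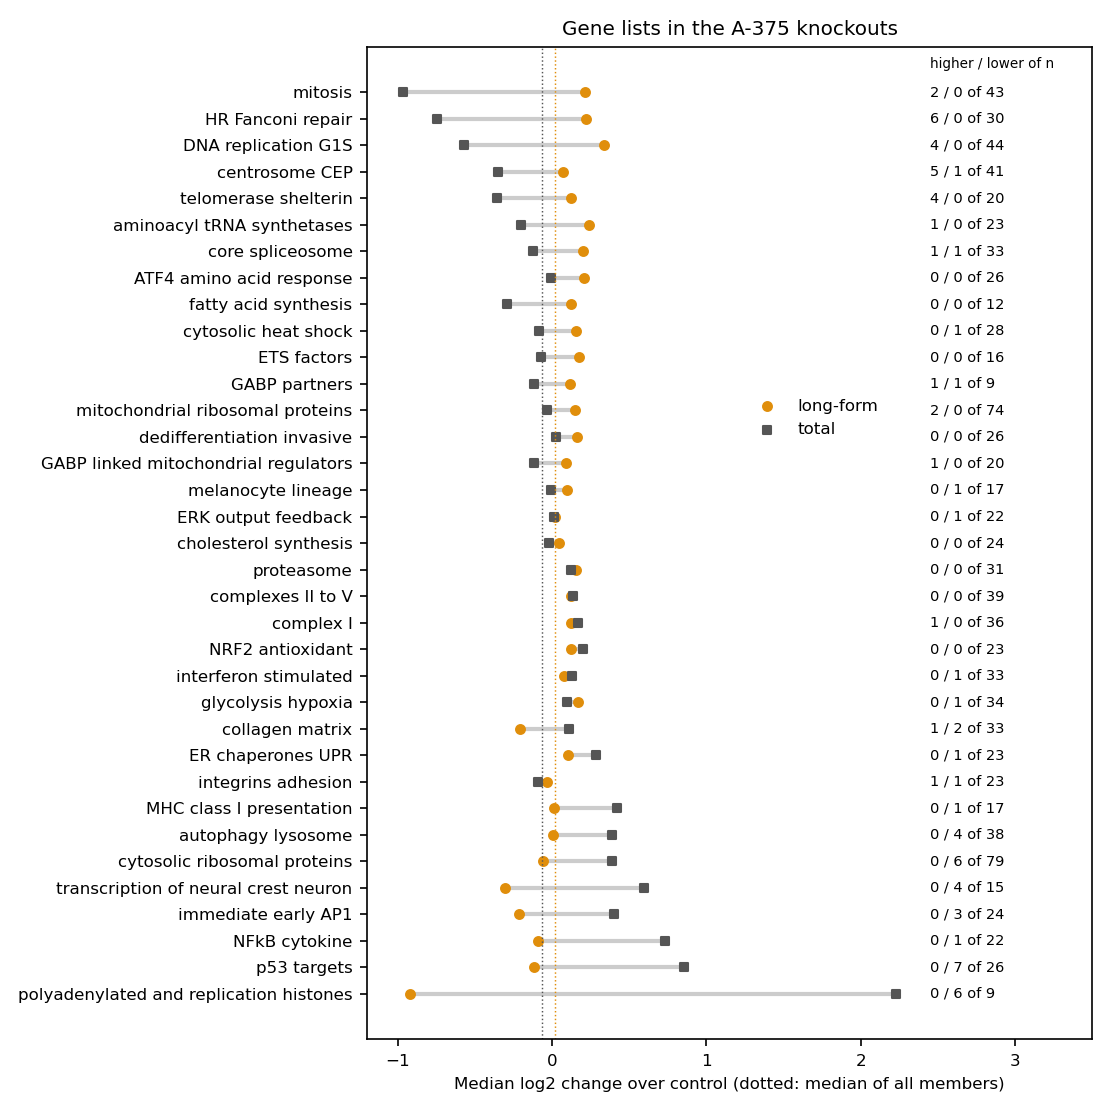
Median log2 change of 35 gene lists in the long-form (circles) and total knockout (squares), ordered by the median difference, with the number of members called higher and lower at the right and dotted lines at the medians of all members. Mitosis, repair and replication genes have the squares left of the circles; p53 targets and histones have them to the right.

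UM-UC-3 total knockout gave a separate readout of the same genes. Among all members measured there, 16.7% were called higher and 14.8% lower in the authors' deposited table. Of the 343 measured genes that were higher in the A-375 long-form knockout, 157 (45.8%) were called lower in UM-UC-3 and 5 higher. Of the 205 measured genes of the lower set, 50 (24.4%) were called higher there and 10 (4.88%) lower. Among genes that fell in the A-375 total knockout, those with a called difference were lower in UM-UC-3 in 141 of 289 cases (48.8%), and those without in 119 of 441 (27.0%). The A-375 total change itself enters the call that splits these genes, so the shares describe the sets and are not particular to the long-form knockout. In the authors' deposited table the median total change was -0.90 in the genes that fell with a called difference and -0.88 in those without, with median SEs of 0.23 and 0.26. Among genes that rose in it, the shares called higher in UM-UC-3 were 39 of 154 (25.3%) and 94 of 383 (24.5%). A long-form knockout in UM-UC-3 was not analysed here, so the difference itself has no counterpart there.

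Start-site windows were searched for the word that GABP binds. RefSeq windows of 300 bases (250 before to 50 after a start, build GRCh38.p14) were found for 10950 of 13235 members with a RefSeq symbol outside chromosome 8 (82.7%). The word CCGGAAG, on either strand, was in a window of 21.9% of these genes. Among genes that fell in the total knockout, it was in 45.2% of 250 with a called difference and in 32.0% of 397 without. The total change enters that split too, as in the UM-UC-3 shares. Of those with a called difference that fell in UM-UC-3 too, 54.9% of 113 had it. Among genes that rose in the total knockout and were lower in the long-form knockout, 10.1% of 148 had it. For the set of all lower genes a window was found for 79.1% only, and its share is not read here.

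The longer word CCGGAAGTG, which contains CCGGAAG, gave the same order: 5.67% of all members, 16.8% of genes that fell in the total knockout with a called difference, 7.81% of those without, and 2.70% of the genes that rose with a called difference, with the same limit on the split. The shares were 18.1% and 7.14% for the first 2 of these sets when only genes with 1 window were used. Sets differ in base composition: the median GC content of the longest transcript was 45.7% in the genes that fell with a called difference and 53.5% in those that rose. A match is a run of letters, not evidence of binding.

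Windows of 4 named genes with the longer word are shown because they are the named genes with the smallest p that hold it, from both arms of the comparison. USP11 and FAM114A2 fell in the total knockout, AATF rose in it, and DNAJB9, a chaperone of the endoplasmic reticulum, had a called difference of -1.29 ± 0.38 without a call in either A-375 table. Capitals mark CCGGAAG and CCGGAAGTG on either strand, and sequences run 5′ to 3′ on the gene's strand.
USP11 (chrX:47232759-47233058, plus strand, word at -37 from the start): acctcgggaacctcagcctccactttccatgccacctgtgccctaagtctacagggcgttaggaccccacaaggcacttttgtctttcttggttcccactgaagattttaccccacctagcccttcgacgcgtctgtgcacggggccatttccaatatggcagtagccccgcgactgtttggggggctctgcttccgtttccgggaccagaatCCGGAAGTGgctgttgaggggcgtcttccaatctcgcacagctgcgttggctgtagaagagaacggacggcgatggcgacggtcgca
FAM114A2 (chr5:154038861-154039160, minus strand, word at -12, read on the other strand): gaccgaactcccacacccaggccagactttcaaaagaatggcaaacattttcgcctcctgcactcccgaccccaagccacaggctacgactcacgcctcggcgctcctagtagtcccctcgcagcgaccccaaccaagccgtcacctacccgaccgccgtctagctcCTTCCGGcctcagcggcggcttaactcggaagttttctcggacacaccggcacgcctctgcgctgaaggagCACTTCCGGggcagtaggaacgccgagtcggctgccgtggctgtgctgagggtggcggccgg
AATF (chr17:36948704-36949003, plus strand, word at 8 after the start): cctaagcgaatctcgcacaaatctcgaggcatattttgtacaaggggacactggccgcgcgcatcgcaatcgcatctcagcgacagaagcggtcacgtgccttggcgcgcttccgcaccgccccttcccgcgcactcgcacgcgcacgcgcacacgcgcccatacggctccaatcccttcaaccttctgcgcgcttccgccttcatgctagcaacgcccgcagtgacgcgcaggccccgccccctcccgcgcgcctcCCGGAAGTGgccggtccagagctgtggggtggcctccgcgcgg
DNAJB9 (chr7:108569624-108569923, plus strand, word at -113): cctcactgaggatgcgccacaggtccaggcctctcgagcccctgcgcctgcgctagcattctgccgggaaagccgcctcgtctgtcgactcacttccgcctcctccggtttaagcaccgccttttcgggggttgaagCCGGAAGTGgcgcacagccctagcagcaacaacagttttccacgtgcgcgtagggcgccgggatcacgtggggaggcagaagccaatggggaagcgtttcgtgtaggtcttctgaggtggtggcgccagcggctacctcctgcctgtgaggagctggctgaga

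**Figure D4:**
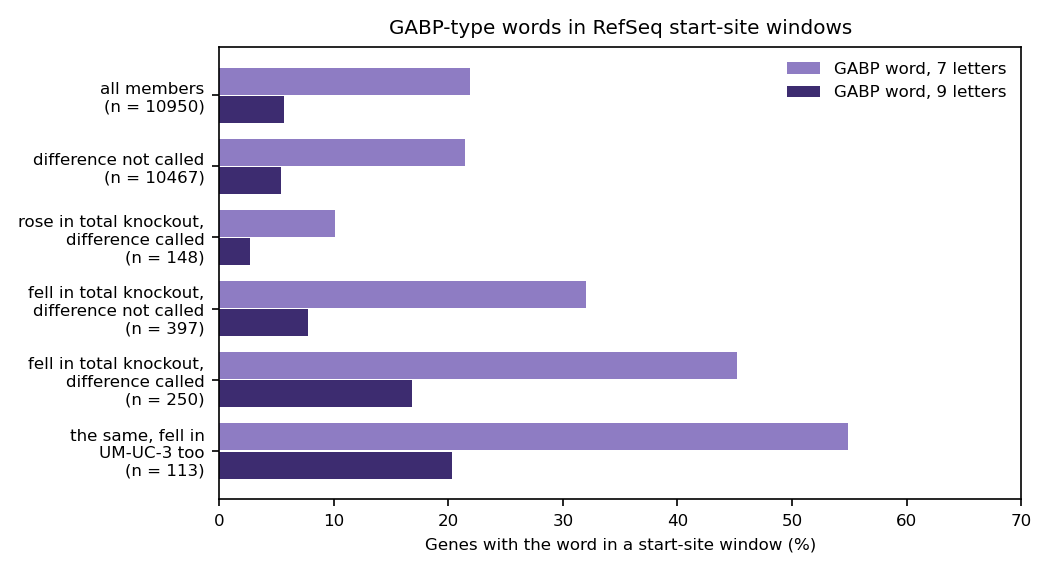
Share of genes with CCGGAAG (7 letters, light bars) or CCGGAAGTG (9 letters, dark bars) in a start-site window, on an axis from 0, for 6 sets with the number of genes that had a window. The bars rise from genes that rose in the total knockout (10.1% and 2.70%) to genes that fell in it and in UM-UC-3 with a called difference (54.9% and 20.4%).

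Called differences were unevenly spread over chromosomes. On chromosome 13, 16 of 252 members were called higher and 2 lower, 7.14% in all, against 4.43% over all members. The median difference there was 0.36, and the median deposited change was -0.40 in the total and 0.01 in the long-form knockout. ZC3H13, SUPT20H and MRPS31 lie on this chromosome, and MRPS31 lost its call when each chromosome's median was removed. On the X chromosome 9 of 494 were called higher and 30 lower, 7.89% in all, with a median difference of -0.14. The share called on each other chromosome lay between 2.48% (chromosome 3) and 5.69% (chromosome 15). On chromosome 9 the median deposited long-form change was -0.17, the lowest of all chromosomes in that table. Copy number was not measured, and its part was not tested.

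**Figure D5:**
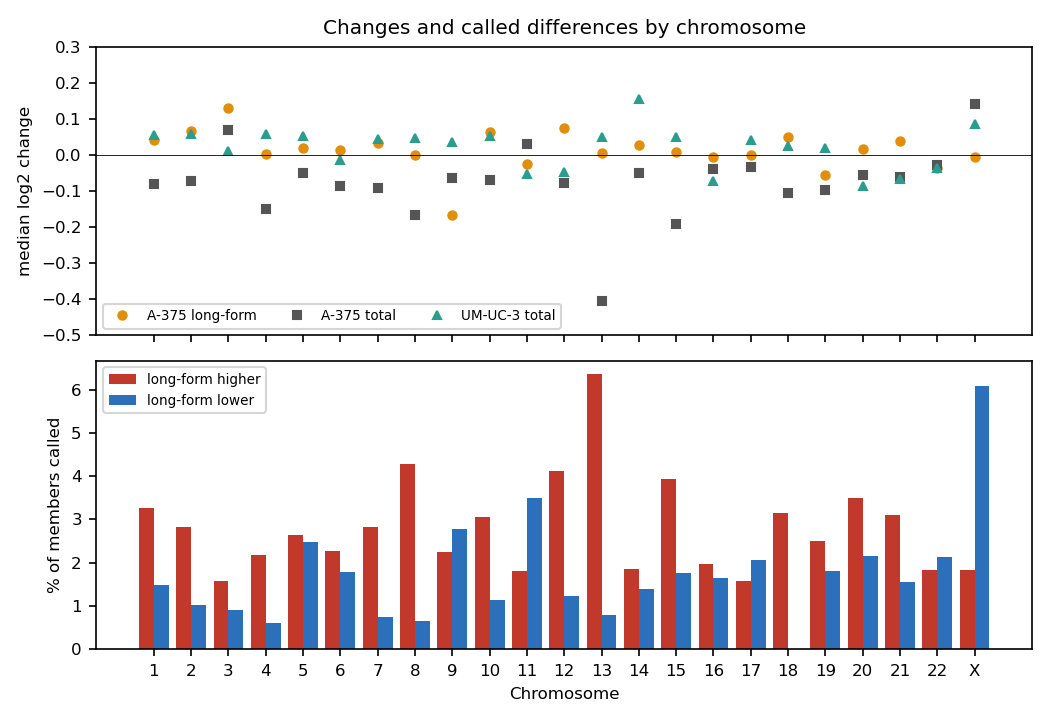
Upper panel, median log2 change of the members on each chromosome in the 3 knockouts; lower panel, percent of members called higher (red) and lower (blue) in the long-form knockout. Chromosome 13 stands at -0.40 in the A-375 total knockout and at 0.05 in UM-UC-3.

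Differences also followed transcript properties. With genes divided into 5 equal groups, from the shortest to the longest transcripts the median difference went from -0.03 to 0.11, and from the lowest to the highest GC content from 0.15 to -0.09. Genes called lower numbered 15 of 2707 in the lowest and 85 of 2707 in the highest GC group, against 1.79% over all members. Genes called higher numbered 70 and 48 in these groups, with the most, 105, in the second lowest, against 2.65% over all members. With the GC trend removed, 233 genes were called higher and 237 lower, and with the length trend removed 212 and 263.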

How the data were processed

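The authors deposited 3 tables of DESeq2 output for RNA-seq of A-375 and UM-UC-3 clones, per the file headers. The signal column is the authors' mean of normalized counts over the libraries of a fit, and the log2 columns are the authors' change of knockout over control and its SE. The score column is the Wald statistic deposited by the authors, and the deposited p-value columns hold its p-value, the p adjusted after Benjamini and Hochberg, and a q-value. HISAT2, SAMtools, StringTie, DESeq2 and build hg38 are named per the submitters' processing notes; for versions, annotation, filters, the control libraries of each fit and use of strand, no statement was found (not given in the sources used here). Depth per library is unknown, so the SE is the measure of precision.

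For each gene the difference of the log2 changes was divided by the root of the summed squared SEs, giving a 2-sided normal p, with Benjamini-Hochberg adjustment over 13945 genes (Python 3.11.15, scipy 1.17.1). The procedure was tested on simulated data whose errors were drawn with the deposited SEs, so those SEs were not themselves tested. The p-values measure the spread between libraries, some of which share a clone. A name listed more than once in a table was left out, which concerned 1 name, and 21 names turned into dates by a spreadsheet were tested but not named. Gene positions came from GENCODE release 29 (13532 members placed), symbols and start-site windows from RefSeq.

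Named genes were GABPA, GABPB2 and TERT, the 15 most significant in each direction (mean at least 100, difference at least 1), up to 4 called members of each of 35 lists, 6 of each class of calls, and genes with intervals within 0.5 of 0; read-through, antisense, clone-named and pseudogene loci were skipped. Members and lists were chosen with earlier results of these data known. Alternatives changed the minimum, centring, error correlation, scaling of z, thresholds and trends. A gene that the rule names is not reported here.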

Additional observations from a re-analysis of the deposited data

Results flagged for a closer look

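In 7 genes the 2 knockouts moved in opposite ways, each called in both deposited A-375 tables and with a called difference between them. The difference (long-form minus total, log2) was -5.07 for PDE2A, -1.03 for DEDD2, -2.81 for CTNND2, -3.66 for RAB11FIP4, 1.07 for SMARCA2, -1.27 for RIN1 and -5.66 for RNA45S5. RNA45S5 is a ribosomal RNA precursor, and its part in the other differences was not tested.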

How the results depend on the processing

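No paired analysis was possible because the tables hold fitted comparisons and no values per library; for the same reason no replicate could be left out. The 618 calls (369 higher, 249 lower) rest on SEs that treat the tables as independent. With errors correlated as for 2, 4 or 6 shared controls, calls numbered 4462 (2600 higher, 1862 lower), 2965 (1770 and 1195) and 2262 (1348 and 914), each set holding all 618. With the median z subtracted and the result divided by the robust SD of z, 1.51, 11 remained (7 and 4). At an adjusted p under 0.01 there were 183 (110 and 73), and against a size of 0.5 there were 57 (22 and 35). A minimum of 100 gave 560 (354 and 206) and no minimum 618. Centring each table gave 511 (208 higher), removing the length trend 475 (212), the GC trend 470 (233) and chromosome medians 496 (235); 457, 437, 417 and 426 of the main calls were among them. The correlation for 4 controls, the trends and the chromosome medians were chosen after seeing the data. No named gene changed sign; of 94 named calls, 83 held after centring and 10 with the robust SD. Counts in the neither-table class fell from 56 and 45 to 24 and 27 by the q-value. The number of genes with an interval within 0.5 of 0 was 780, and 1732 to 2813 with correlated errors. Depth is unknown.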
